A study of Rattus norvegicus with 3 samples.

Results

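Choroid plexus epithelial-like cells were taken from 3 single-cell libraries of the rat cerebral cortex by a rule on raw counts of unique molecular identifiers (UMIs). A barcode was kept as a cell if 1000 or more genes were detected and no more than 10% of its UMIs were mitochondrial. Members were chosen by their own marker counts: a kept cell was a member if it met 3 or more of 6 criteria. The criteria were at least 5 UMIs of Ttr and at least 1 UMI each of Folr1, Clic6, Kcne2, Otx2 and Sostdc1. In all, 141 of 15327 kept cells were members. The libraries came from wildtype rat (Rattus norvegicus) cortex, freshly prepared as primary cells with papain, and carry the labels E14, E16 and E18 (embryonic days 14, 16 and 18). No transgene, mutation or treatment was named for any of them, and neither the number of embryos per library nor the dissected region within the cortex was given. The protocol text also describes culture, freezing, multiplex labelling and a sort of live human cells, and which of those steps the rat cells went through is not known. Each label had 1 library, so nothing here has a replicate check. Every interval is a 95% interval for counting error only, and no p-value is given.

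The choroid plexus is a sheet of epithelium that hangs into the brain ventricles and makes cerebrospinal fluid. Its cells pump ions and water across the sheet, are sealed by tight junctions, secrete carrier proteins such as transthyretin (Ttr), and bear tufts of cilia. In the forebrain it arises at the dorsal midline beside the cortical hem, a strip of neuroepithelium that releases Wnt and bone morphogenetic protein (BMP) signals.

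The deposited matrices held 7100 (E14), 6707 (E16) and 6937 (E18) barcodes with 62740631, 80974234 and 73727823 UMIs, of which 4444, 5193 and 5690 barcodes were kept. Neuron-like cells, with a UMI of both Neurod6 and Neurod2, made up 3776, 641 and 3136 of the kept cells. That order is not the order of the labels, so every direction below is between libraries as labelled and not between known ages. Pairs of libraries shared 12 to 17 barcode sequences, and 1 barcode shared by the E16 and E18 libraries was a member in at least 1 of them.

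The library labelled E14 held no member, and 0 of 4444 cells allows a share of up to 0.0675% (3 counts of the total), or 0.0830% by the exact interval. The library labelled E16 held 93 members, 1.79% of its kept cells (interval 1.45 to 2.19%). The library labelled E18 held 48, or 0.844% (0.623 to 1.12%). Members were therefore sampled in only 2 of the 3 libraries, and a smaller share was found under E18 than under E16. With every cell thinned to 4000 UMIs and the rule applied again, 0 of 4327, 55 of 5020 (1.10%) and 29 of 5539 (0.524%) cells met it. Shares of this kind also depend on how much choroid plexus a dissection carried along, which cannot be told apart here from a difference between stages.

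Members were deeper than the cells around them. Their median was 17079 UMIs and 4500 genes under E16, against 12393 UMIs and 3482.5 genes in the other kept cells. Under E18 it was 18648.5 UMIs and 4545 genes, against 10648 and 3301. The median mitochondrial share was 4.95% and 4.81% in members and 3.94% and 5.04% in the others. One E18 member held 262857 UMIs, 15.9% of all UMIs of that group, where the next deepest held 115272 and the deepest E18 cell outside the group 102446. Pooled E18 values lean on that cell, and they are given without it wherever that matters. Among the highest doublet scores were 5 of 93 and 2 of 48 members, where 216 of 5193 and 259 of 5690 kept cells held such scores.

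The values that chose the members are a description. Ttr reached 5 UMIs in 87 of 93 E16 members and 47 of 48 E18 members. Otx2, the homeobox factor of the choroid plexus primordium, was found in 91 and 46. Kcne2, an accessory subunit of potassium channels, was found in 59 and 35, and Sostdc1, a secreted antagonist of BMP and Wnt signals, in 60 and 37. The folate receptor gene Folr1 was found in 47 and 36. Clic6, of the chloride intracellular channel family, had the lowest count under E18 (47 and 18). Outside the group, 29 of 5100 E16 cells and 25 of 5642 E18 cells had 5 Ttr UMIs, while 783 and 2162 had any.

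Cells next to the threshold differed in level. E16 cells that met exactly 3 criteria (30 cells) held Ttr at 12950 CPM (counts of UMIs per 1000000), and those that met exactly 2 (66 cells) held 1611. The E18 values were 9524 CPM in 12 cells and 2555 CPM in 21. Kcnj13, a potassium channel gene that the rule did not use, stood at 97.5 CPM inside and 10.5 CPM outside the threshold under E16, and at 78.3 and 8.57 CPM under E18. Cilia genes did not follow that order in both libraries: Foxj1, the factor of motile cilia, stood at 108 and 17.6 CPM under E16 but at 5.596 and 17.1 CPM under E18, and Dynlrb2, a dynein light chain, at 83.3 and 11.4 CPM but at 5.596 and 22.9 CPM. The 12 E18 members at the threshold thus held few UMIs of these cilia genes. All 6 criteria were met by 10 E16 members with a median of 33625.5 UMIs and by 17 E18 members with a median of 65676 UMIs. The number of criteria met thus moved with depth.

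Ttr made up a widely varying share of a member's UMIs. Under E16 it ran from 0 to 17.0%, with a median of 3.94% and quartiles of 1.35 and 6.77%. Under E18 it ran from 0.0114 to 22.7%, with a median of 7.33% and quartiles of 2.95 and 13.1%. The ranges overlap almost fully, and the middle of the E18 range lies higher. Members held 96.9% of all Ttr UMIs of kept cells under E16 and 97.9% under E18.

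**Figure D1:**
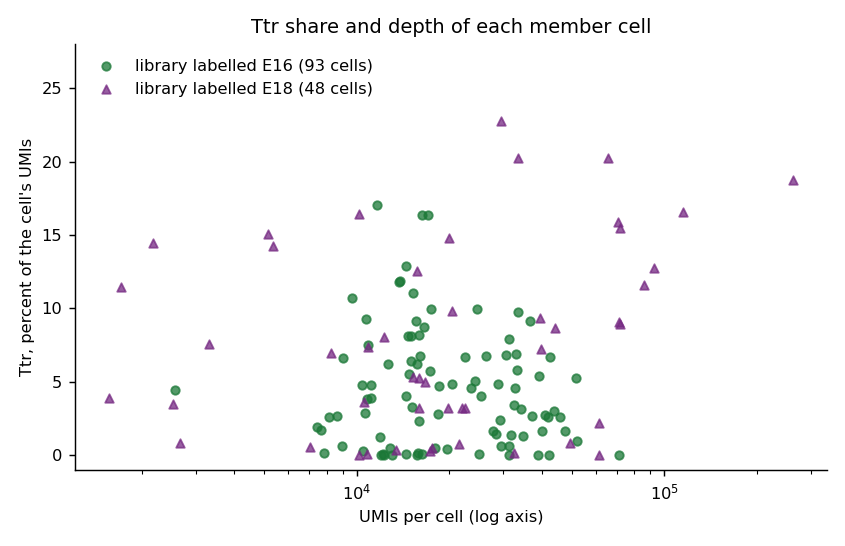
Each point is 1 member cell, with its UMIs on a log axis and the percent of its UMIs from Ttr. Cells of both libraries spread from near 0 to 17.0% (E16) or 22.7% (E18), and the deepest cell, under E18, has 262857 UMIs.

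The label was set beside gene lists that, apart from the rule's own genes where named, the rule did not use. UMIs were summed over members and over the other kept cells of the same library, and a gene was called if it had at least 20 CPM on one side, differed at least 2-fold and had intervals that did not overlap. Log2 differences are of CPM + 1. Of 7131 genes tested under E16, 17.4% were called higher and 6.6% lower in members. Under E18 the shares were 20.3% and 19.4% of 7603. In both libraries at once, 14% were called higher and 5.8% lower. The median over all genes tested was 0.15 under E16 and -0.15 under E18, so list medians are to be read against these. A list median is over its genes with at least 5 CPM on one side.

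Channels and pumps of fluid secretion were higher in members than in the cells around them. The ion and water transport list had 11 of 14 tested genes called higher and 0 lower under E16 (median 3.01), and 18 of 19 higher and 0 lower under E18 (median 4.50), where all genes gave 17.4% and 20.3%. Kcne2 and Clic6, which the rule used, are among them. Kcnj13, the inward rectifier Kir7.1 of the apical membrane, stood at 195 CPM (177 to 215) in E16 members against 0.535 in other cells, and at 537 CPM (502 to 573) against 0.333 under E18. Its levels per cell had a lowest, median and highest of 0, 151 and 1019 CPM under E16 and 0, 329 and 1503 CPM under E18. Slc4a5, a sodium bicarbonate cotransporter, was at 46.7 and 162 CPM in members and at 0.0668 and 0.232 CPM in other cells.

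Other transport genes were higher in members, from different levels in the cells around them. Slc12a2, the sodium potassium chloride cotransporter NKCC1, was at 111 and 118 CPM in members against 25.7 and 28.3 CPM. The chloride and bicarbonate exchanger Slc4a2 stood at 102 and 288 CPM against 7.36 and 8.26. Trpm3, a cation channel gene, was at 71.0 and 59.1 CPM against 0.508 and 0.246. Carbonic anhydrase Car2 was at 374 and 678 CPM in members, against 24.9 and 6.87 CPM. The water channel Aqp1 was at 28.1 CPM (21.4 to 36.2) under E16 and at 214 CPM (192 to 238) under E18, against 0.481 and 0.768 CPM. Atp1b3, a sodium pump subunit, was measured but called in neither library (123 and 108 CPM against 87.7 and 68.8).

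Several junction and epithelial genes were higher in members, among them Cldn1 in both libraries. The junction and epithelial list had 3 of 6 called higher under E16 and 8 of 11 under E18, with none lower (medians 2.32 and 3.36). Cldn1 stood at 181 and 167 CPM in members and at 0.575 and 0.275 CPM in other cells. Occludin (Ocln) was at 27.6 and 45.8 CPM against 0.414 and 0.464, and ezrin (Ezr), which links the apical membrane to actin, at 723 and 757 CPM against 34.4 and 142. The scaffold gene Tjp1 was not called, at 65.7 and 46.4 CPM against 47.1 and 29.0, nor was the cadherin Cdh2, at 252 and 143 CPM against 238 and 243. Cdh1, the cadherin of most epithelia, was at 2.38 CPM under E16 and 0 under E18.

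Secreted proteins and carriers were mixed under E16 and mostly high under E18. The list had 9 of 16 higher and 2 lower under E16 (median 1.08), with Penk, proenkephalin, among the lower ones. Under E18 it had 16 of 19 higher and 0 lower (median 2.62). Igfbp2, an insulin-like growth factor binding protein, was found in all 93 and all 48 members, at 1216 and 2260 CPM against 268 and 273 in other cells. Sparc, a matrix protein, was at 603 and 1098 CPM against 76.9 and 61.1. Apoe, an apolipoprotein, was at 319 and 391 CPM against 33.7 and 29.0. Cp (ceruloplasmin) and Rbp4 were measured at no more than 10.9 CPM in members of either library.

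Carriers of nutrients were called more often under E18, where more of them reached 20 CPM. The solute and barrier list had 4 of 7 higher and 2 lower under E16 (median 1.73), and 13 of 15 higher and 2 lower under E18 (median 2.81). Folr1, which the rule used, is among the higher ones in both. Slc5a3, which carries myo-inositol, was at 131 and 235 CPM against 6.70 and 8.84. The copper transporter Slc31a1 was at 50.01 and 219 CPM against 14.03 and 15.6. Slc29a4, a monoamine transporter, and Slc35f1 were the lower ones in both libraries. The multidrug pumps Abcb1a and Abcg2 were at or under 0.476 CPM in members. A gene near 0 in other cells entered these counts only where members held it at 20 CPM or more, so the counts describe the members and do not support the label. Not tested under E16 were 9 of 23 ion and water, 9 of 25 carrier, 19 of 26 solute and 15 of 21 junction genes, and under E18 4, 6, 11 and 10. Slc22a8, Abcc4, Kcna1, Cp and Rbp4 were among those untested in both. The cells are called choroid plexus epithelial-like by the rule's markers.

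**Figure D2:**
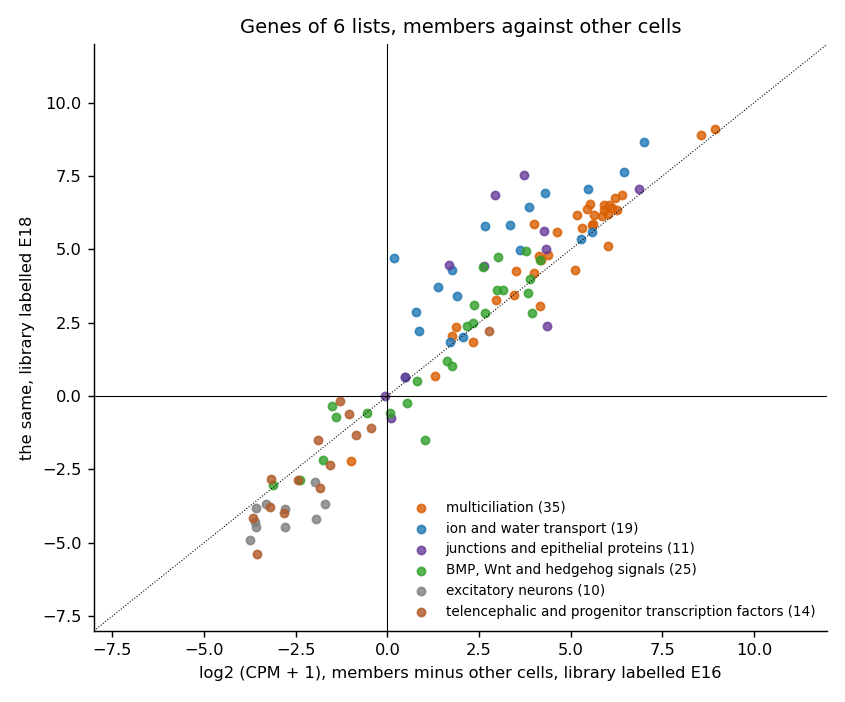
Each point is a gene of 1 of 6 lists with at least 20 CPM in members or other cells of a library, with its log2 difference of CPM + 1, members minus other cells, under E16 (x) and E18 (y). Multiciliation genes other than Ezh2, which was called lower under E18 (-2.20), lie in the upper right, from Cfap126 (8.94 and 9.11) downward, and the 10 excitatory neuron genes lie in the lower left.

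Most genes of multiciliated cells that were tested were higher in members. The list held regulators and parts of motile cilia, and 33 of 34 tested genes were called higher and 0 lower under E16, with a median of 5.16. Under E18 it was 31 of 33 higher and 1 lower, with a median of 5.78. The lower one was Ezh2, a histone methyltransferase on that list. Over all genes, 17.4% and 20.3% were called higher. As above, a cilia gene near 0 in other cells was tested only where members held it at 20 CPM, which favours higher calls, and 5 and 6 of 39 were not tested, Cdc20b, Tmem212, Ccdc153 and Meig1 in both libraries.

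Regulators at the top of the cascade were part of this. Gmnc (geminin coiled-coil), which acts upstream, was at 27.6 and 24.1 CPM in members against 1.497 and 0.319. Mcidas (multicilin) was at 40.5 CPM in 23 of 93 E16 members and at 10.3 CPM in 6 of 48 E18 members, below the level at which genes were called under E18. Ccno, a cyclin-like gene needed for making many centrioles, was at 209 and 56.1 CPM against 2.23 and 0.638. Deup1, which builds the deuterosomes where centrioles multiply, was at 105 and 54.3 CPM against 2.03 and 1.80. Foxj1, the master factor of motile cilia, was at 304 CPM (281 to 328) and 265 CPM (241 to 291) against 4.04 and 1.91. Its levels per cell had a lowest, median and highest of 0, 190 and 1667 CPM under E16 and of 0, 196 and 1111 CPM under E18.

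Some structural genes of cilia were among the highest in the contrast, beside genes of other kinds. Beyond the rule's own genes, the 20 highest by the smaller of both libraries' log2 differences were led by Cfap126 (8.94 and 9.11), Dynlrb2 (8.56 and 8.89) and Cfap144 (8.35 and 8.50), and also held Cfap52, Cfap251, Tekt2, Hoatz, Lrriq1 and Nme9. Cfap126 is a cilia and flagella associated protein, and Dynlrb2 a dynein light chain. Cfap126 stood at 597 and 802 CPM in members and at 0.214 and 0.449 CPM in other cells. Dynlrb2 stood at 816 and 811 CPM against 1.16 and 0.710. Hydin, of the central pair of the axoneme, was at 81.9 and 81.4 CPM against 0.281 and 0.116. The same 20 held the serotonin receptor Htr2c (274 and 362 CPM, log2 7.84 and 8.19), a known choroid plexus gene, with Kcnj13, Cldn1, Calml4, Rbm47, Cntn1 and Sulf1.

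Promoter sequences of the cilia genes are shown because RFX factors, 2 of which (Rfx2 and Rfx3) are on the list, bind a motif of known letters in ciliary promoters. The letters GTTGCC, part of that motif, were searched on both strands (GGCAAC on the other) in the RefSeq promoter table of build GRCr8, from 250 bases before to 50 after each gene's start. Of 39 multiciliation genes 26 had an entry, and 14 of the 26 (53.8%) held GTTGCC, against 3343 of all 27457 promoters (12.2%). A longer form, GTTGCCA, contains the first and reads TGGCAAC on the other strand, and was in 7 of 26 (26.9%) against 4.45% of all. GTTGCC was in 3 of 15 ion and water transport promoters (20.0%) and in 2 of 22 cell cycle promoters (9.09%). The list and the motif were chosen after these results were known, and a match is letters in a window, not a shown binding site. The windows below hold the match with up to 50 bases on each side, go no further than the gene's start, and are written 5′ to 3′ on the gene's strand, and carry the longer match in capitals.
Ccno, chr2:46363824-46363881, plus strand: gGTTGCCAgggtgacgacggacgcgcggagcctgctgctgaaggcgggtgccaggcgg
Deup1, chr8:20723586-20723655, minus strand: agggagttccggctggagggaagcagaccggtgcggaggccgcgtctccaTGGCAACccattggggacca
Tekt1, chr10:57479122-57479210, minus strand: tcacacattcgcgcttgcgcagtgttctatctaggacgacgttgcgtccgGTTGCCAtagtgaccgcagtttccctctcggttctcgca
Cfap44, chr11:69789906-69789965, minus strand: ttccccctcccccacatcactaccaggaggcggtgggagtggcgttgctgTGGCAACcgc
Hydin, chr19:55146409-55146465, plus strand: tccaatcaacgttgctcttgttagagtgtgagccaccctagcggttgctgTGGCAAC

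The match sits close to the gene start in Deup1, Tekt1, Cfap44 and Hydin, and near the far end of the searched window in Ccno. The 5 were shown because members held them at 50 CPM or more, so their level is not a finding. The other 2 genes with the longer match, Mcidas and Dnah11, were below that. Tekt1, a tektin of the axoneme, was at 151 and 191 CPM against 2.46 and 1.32, and Cfap44 was at 65.7 and 73.0 CPM against 0.147 and 0.058.

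Transcription factors of the dorsal midline were high and those of the cortical neuroepithelium low. The roof plate and choroid list had 11 of 16 higher and 2 lower under E16 (median 1.85), and 10 of 15 higher and 4 lower under E18 (median 2.52). Foxj1 and the rule gene Otx2 are among them. Lmx1a, a roof plate homeobox factor, was at 128 and 112 CPM against 3.38 and 0.928. Msx1 and Msx2, targets of BMP signals, were at 127 and 238 CPM and at 146 and 80.8 CPM, against at most 8.38 CPM in other cells. Zic4, a zinc finger factor of the dorsal midline, was at 351 and 273 CPM against 45.2 and 17.3.

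The telencephalic and progenitor list had 11 of 14 lower and 1 higher under E16 (median -1.84), and 11 of 13 lower and 1 higher under E18 (median -2.34), against 6.6% and 19.4% of all genes called lower. Lhx2, a selector of cortical identity, was at 81.0 and 33.8 CPM against 581 and 554. Emx1 was at 14.8 and 10.3 CPM against 144 and 155. The gene called higher was the nuclear receptor Nr2f2 (303 and 150 CPM against 43.4 and 31.1). Of 16 genes of hindbrain and spinal position (Hox genes, En1, En2 and Gbx2), all were at 0 UMIs in E16 members, and En2 alone was found under E18, at 0.603 CPM.

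Signals of the hem were carried by members too. The list of BMP, Wnt and hedgehog genes had 16 of 25 higher and 5 lower under E16 (median 1.93), and 13 of 22 higher and 4 lower under E18 (median 2.44). The ligands Bmp4 (97.6 and 54.9 CPM against 5.71 and 2.48) and Bmp7 (64.3 and 100 CPM against 9.81 and 3.77) were higher in both. So were the targets Id1 (332 and 205 CPM against 23.3 and 5.63) and Id3 (364 and 185 against 69.7 and 20.4). Id4, of the same family, was lower, at 154 and 83.8 CPM against 1336 and 694. The Wnt amplifiers Rspo1, Rspo2 and Rspo3 were higher in both, as were Wnt3a, Wnt8b and the Wnt target Axin2 (226 and 138 CPM against 49.5 and 25.4).

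Hem-like cells were therefore taken as a second comparison. They were non-members with at least 1 UMI of at least 3 of Wnt3a, Wnt2b, Wnt8b, Rspo1, Rspo2, Rspo3 and Lmx1a, and numbered 1, 174 and 49 in label order. The same rule was met by 80 of 93 E16 members and 30 of 48 E18 members, so the definitions overlap. Against hem-like cells, 10.1% of genes were called higher and 5.75% lower under E16, and 14.8% and 17.5% under E18. The multiciliation list had 31 of 34 higher and 0 lower under E16 and 28 of 34 higher and 1 lower under E18. Ion and water transport had 10 of 14 and 18 of 19 higher. Carriers and secreted proteins had 4 of 15 and 11 of 19 higher, with 0 lower. Solute transport had 2 of 7 and 11 of 15 higher, and 2 lower in each library. Junction and epithelial genes had 3 of 6 and 8 of 11 higher, with 0 and 2 lower. Igfbp2 was called in neither library against hem-like cells, and Sparc was not called under E16. Here too a gene near 0 in hem-like cells was tested only where members held 20 CPM.

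The roof plate list, whose genes are found on both sides of this comparison, had 4 of 16 higher and 4 lower under E16 (median 0.11), and 4 of 16 higher and 3 lower under E18 (median -0.10). The higher ones were Foxj1, Msx1, Msx2 and Otx2 in both libraries. The signal list had 1 of 26 higher and 7 lower under E16 and 5 of 21 higher and 8 lower under E18. Of the lower ones, Rspo1, Wnt2b and Wnt3a under E16 and Rspo2, Rspo3, Wnt3a and Wnt8b under E18 had chosen the hem-like cells, so nothing is read from this split. Wnt3a stood at 40.01 and 21.1 CPM in members and at 105 and 71.0 CPM in hem-like cells. Regulators early in the ciliary cascade were found in hem-like cells as well, with Gmnc at 22.2 and 16.7 CPM, Mcidas at 15.4 and 22.3 CPM and Ccno at 23.2 and 48.7 CPM, while Cfap126 was at 0.342 and 1.39 CPM. The E18 hem-like cells held Reln at 1473 CPM, Col1a1 at 128 CPM and 5073 CPM summed over the excitatory neuron list. What part those had in the E18 comparison was not tested.

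Radial glia-like cells were the cortical progenitors with a UMI each of Pax6, Sox2 and Hes5 and none of Eomes or Neurod6 (1331 and 691 cells). Against them, 17.8% of genes were called higher in members and 8.1% lower under E16, and 20.5% and 19.6% under E18. Hem-like cells were fewer (174 and 49), which widens intervals and leaves fewer calls. The shares called are therefore not compared between hem-like and radial glia-like cells. The radial glia list had 8 of 8 lower under E16 and 8 of 9 under E18, 3 of its genes having chosen the comparison cells. The cell cycle list had 13 of 32 lower and 1 higher under E16 and 28 of 33 lower and 2 higher under E18. The cycle inhibitor Cdkn1c was higher in both, at 383 and 836 CPM against 16.8 and 8.03 CPM.

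Marker lists of most other cell types summed lower in members than in other cells, but the endothelial and mural list did not. It summed to 47.6 CPM (E16) and 61.5 CPM (E18) in members, against 26.6 and 34.7 CPM in other cells. The Cajal-Retzius list summed to 103 and 102 CPM against 149 and 163 CPM. For the radial glia list the sums were 1350 and 1126 CPM against 3169 and 2952.5 CPM. The 10 excitatory neuron genes were all lower, and summed to 207 CPM (E16) and 241 CPM (E18), against 8149 and 8243 CPM in neuron-like cells. The erythroid list summed to 431 and 109 CPM, against 50140 and 4180 CPM in other cells. The intermediate progenitor list had 7 of 7 lower in both libraries, and the GABAergic list 2 of 2, with Gad1 at 0 in members. Macrophage genes summed to 1.91 and 1.21 CPM. Of endothelial genes, Pecam1 and Cdh5 were at 0 in both, while Kdr, a receptor for vascular growth factor, was called higher in both (25.2 and 45.2 CPM against 4.66 and 3.91). Of Cajal-Retzius genes, Lhx1 and Calb2 were at 0 in both, Reln was at 27.1 and 52.5 CPM and Tp73 was called higher (66.2 and 44.6 CPM against 10.4 and 5.55). Of meningeal genes, Col3a1 was at 4.76 CPM and 0, and Pdgfra was called higher under E18 (21.1 CPM against 1.33) and below 20 CPM under E16. Dissociation stress genes had 0 of 3 higher and 2 lower under E16, and 1 of 5 higher (Hspa1b) and 2 lower under E18.

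Neuronal, glial and fibroblast genes were among the lowest in members. By the larger of both libraries' log2 differences, the 10 lowest included Pcp4 (-5.84 and -4.93), Stmn2 (-3.75 and -4.90), Cnr1 (-4.02 and -4.36) and Ina (-4.06 and -3.91), and the fibroblast collagen Col3a1 (4.76 and 0 CPM against 103 and 39.9). Fabp7, the fatty acid binding protein of radial glia, was among them, at 22.9 and 7.84 CPM against 371 and 298.

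Shares of cells with a UMI were compared after thinning every cell to 4000 UMIs, which left 92 E16 and 42 E18 members. Neuron-like cells, with medians of 9714 and 9792.5 UMIs before thinning against 17079 and 18648.5 in members, gave the background. Foxj1 was found in 45.7% (35.2 to 56.4%) of E16 members and 47.6% (32.0 to 63.6%) of E18 members, and in 0.791% and 0.355% of neuron-like cells. Without thinning the member shares were 69.9% and 70.8%. Cfap126 was found in 43.5% and 64.3% of members (59.1% and 64.6% without thinning) and in 0.158% and 0.161% of neuron-like cells. Both genes were thus found in many but not all members at this depth, at shares far above the background. Ttr itself was found in 4.11% of E16 and 16.6% of E18 neuron-like cells, so a single Ttr UMI is read as background.

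Shares of Clu and Krt18 were larger in E18 than in E16 members. Clu, the secreted chaperone clusterin, was found in 19.6% (12.03 to 29.1%) of E16 members and 73.8% (58.0 to 86.1%) of E18 members, or 46.2% and 89.6% without thinning, and in 0.633% and 3.87% of neuron-like cells. The shares for Aqp1 were 9.78% (4.57 to 17.8%) and 31.0% (17.6 to 47.1%), or 29.0% and 52.1% without thinning, with 0% and 0.226% as background. Krt18, a keratin of simple epithelia, was found in 6.52% (2.43 to 13.7%) and 31.0% (17.6 to 47.1%), or 29.0% and 62.5% without thinning, with 0.158% and 0% as background. Intervals do not overlap for Clu and Krt18 and overlap narrowly for Aqp1. The keratin Krt8 was at 6.52% (2.43 to 13.7%) and 19.05% (8.60 to 34.1%), with overlapping intervals, and was found in 20 of 93 and 24 of 48 members without thinning. Wnt8b ran the other way, at 47.8% (37.3 to 58.5%) and 21.4% (10.3 to 36.8%), or 78.5% and 37.5% without thinning, with 1.27% and 0.322% as background. Ccno was found in 25% (16.6 to 35.1%) and 11.9% (3.98 to 25.6%), or 34.4% and 16.7% without thinning, with 0.316% and 0% as background, and its intervals overlap.

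**Figure D3:**
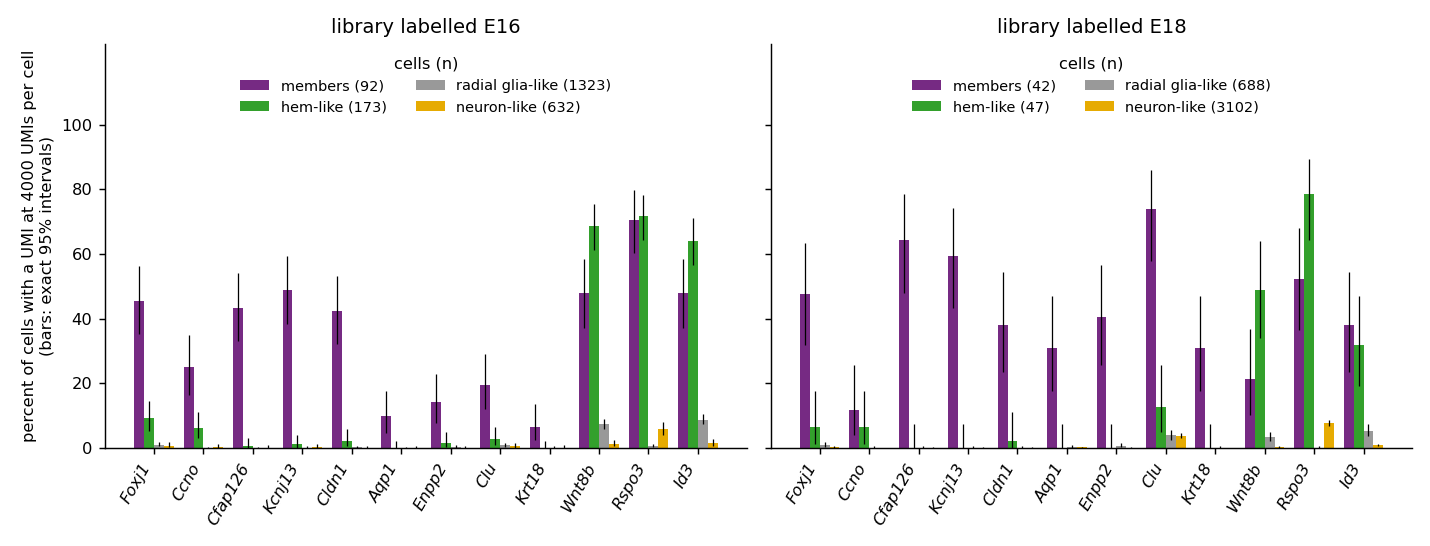
Bars give the percent of cells with at least 1 UMI of each of 12 genes after thinning to 4000 UMIs per cell, in members, hem-like, radial glia-like and neuron-like cells of each library, with exact 95% intervals as error bars. Genes from Foxj1 to Krt18 are found mainly in members, except Ccno under E18, and Wnt8b, Rspo3 and Id3 in members and hem-like cells. Under E18, Ccno is in 11.9% (3.98 to 25.6%) of members and 6.38% (1.34 to 17.5%) of hem-like cells.

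Within members, the E18 library was then set against the E16 library, with the same ratio in radial glia-like cells beside it. Clu may serve as the example. It was at 86.7 CPM (74.5 to 100) in E16 members and 1211 CPM (1159 to 1265) in E18 members, with a lowest, median and highest cell of 0, 0 and 554 CPM and of 0, 364 and 5958 CPM. The log2 difference was 3.79, and 3.44 without the deepest E18 cell. In radial glia-like cells Clu was at 1.77 and 9.62 CPM, too low to be tested, with a log2 difference of 1.94 in the same direction, and was found in 0.907% and 3.92% of thinned cells (3.16% and 11.6% without thinning). Among 7071 genes tested, 5.09% were called higher under E18 and 4.98% lower, or 360 and 352 genes. In radial glia-like cells the shares were 1.76% and 0.527% of 6265, and in all other kept cells 6.23% and 1% of 6497. In members, 2 of 6 tested excitatory neuron genes (Gap43 and Neurod6) were called higher under E18 and 0 lower. Radial glia-like cells had 0 of 5 higher and 2 lower on that list. The dissociation stress gene Hspa1b was called higher in both kinds of cells.

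The balance of higher and lower calls over all genes depended on scaling. Ttr took 11.1% of E18 and 4.14% of E16 member UMIs, and its own part in this was not tested. Higher calls made up 50.6% of all calls as scaled to all UMIs, 62.1% (486 and 296 genes) when Ttr and mitochondrial genes were left out of the total, and 63.0% (440 and 258) when ratios were centred on the median of all genes, which was -0.13. Without the deepest cell, 310 genes were called higher and 232 lower. With at most 5% mitochondrial UMIs they were 564 and 783, so the balance between higher and lower calls was not stable. In radial glia-like cells that median was 0.06.

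Transport and secretion genes were higher under E18. Ion and water transport had 13 of 19 called higher and 0 lower, with a median log2 difference of 1.49 (0.26 in radial glia-like cells, of 4 genes tested with 0 called). Carriers and secreted proteins had 10 of 19 higher and 0 lower (1.03, against -0.15), solute and barrier transport 10 of 13 higher and 0 lower (1.21, against 0.12), and junction and epithelial genes 5 of 11 higher and 0 lower (0.64, against -0.05). Folr1 and Kcne2, which the rule used, are counted there. Of these higher genes, 5 of 13 ion and water, 4 of 10 carrier, 8 of 10 solute and 5 of 5 junction genes were below 20 CPM on both sides of the E16 comparison, so they were tested here only through the E18 library. Without the deepest cell the medians were 1.43, 0.98, 1.31 and 0.58 in the same order.

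Named members of those lists gave large differences. Aqp1 differed by 2.89 on the log2 scale (0.37 in radial glia-like cells), from the levels given above. Enpp2, which makes lysophosphatidic acid and is secreted into cerebrospinal fluid, was at 54.8 CPM (45.2 to 65.7) and 449 CPM (418 to 483). Kl, the Klotho gene, was at 8.57 CPM in 12 E16 members and 84.4 CPM in 24 E18 members. Ptgds, which encodes the abundant cerebrospinal fluid protein prostaglandin D synthase, was at 3.33 CPM (1.34 to 6.87) in 6 members and at 223 CPM (201 to 247) in 16. The sodium pump subunit Atp1b1 (22.9 and 153 CPM) was called, and Slc12a2 (111 and 118 CPM) and Trpm3 (71.0 and 59.1 CPM) were not.

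Some of these rested on few cells. Slc13a4, a sulfate transporter, was at 6.67 and 136 CPM, a log2 difference of 4.16, and 57% of its E18 UMIs were in 1 cell. Without the deepest cell its difference was 3.22. Atp2b3, a calcium pump gene, was at 9.05 and 146 CPM (3.87, and 3.35 without that cell). The keratins Krt8 (16.2 and 199 CPM) and Krt18 (19.1 and 205 CPM) differed by 3.54 and 3.36, and by 3.17 and 3.08 without it. Pmch and Pmel were among the 12 genes with the largest differences, but 95% and 93% of their E18 UMIs were in 1 cell. The other genes of those 12 were Ptgds, Psca, Serpinb1a, Slc13a4, Atp2b3, Clu, Krt8, Sncg, Krt18 and Crygb.

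Some genes that were already high under E16 were not called. Cldn1 was at 181 and 167 CPM, Htr2c at 274 and 362 CPM and Ezr at 723 and 757 CPM. The claudins Cldn2, which forms pores in leaky epithelia, and Cldn3 were called, at 19.1 and 54.3 CPM and at 5.72 and 20.5 CPM.

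The cilia genes gave no common direction between the libraries. Of 35 tested, 2 were called higher (Cfap43 and Ak7) and 3 lower (Mcidas, Ccno and Ezh2), with a median of 0.18 and a range over the alternatives tried of -0.06 to 0.66. Ccno differed by -1.88 and Mcidas by -1.88, while Foxj1 (-0.19), Dynlrb2 (-0.01) and Hydin (-0.01) were not called. The early regulators Gmnc (-0.19), Deup1 (-0.94) and Myb (-0.86) were not called either, and the difference between these genes was not tested. With at most 5% mitochondrial UMIs (50 and 26 members), Ccno differed by -0.92 and Mcidas by -0.66, less than 2-fold, and Mcidas differed by -0.81 in members without a Xist UMI. Ccno was found in 32 of 93 and 8 of 48 members, with 41% of its E18 UMIs in 1 cell.

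Some signal genes and many cell cycle genes were lower under E18. The BMP, Wnt and hedgehog list had 0 of 23 higher and 5 lower (Bmpr1a, Wnt8b, Rspo2, Rspo3 and Nkd1), with a median of -0.79, against -0.38 and 0 of 11 higher and 1 lower in radial glia-like cells. Wnt8b was at 273 CPM (251 to 296) and 75.4 CPM (62.7 to 89.8), and it was the 1 gene also called in radial glia-like cells (33.9 and 15.5 CPM). Rspo3 was at 404 and 172 CPM. Wnt3a, Rspo1, Bmp4, Bmp7 and Axin2 were not called. With cells weighted equally, the log2 differences of Wnt8b (-1.84), Rspo2 (-1.41) and Rspo3 (-1.23) were -0.72, -0.78 and -0.34, less than 2-fold. The cell cycle list had 15 of 29 lower and 2 higher, with a median of -1.04, against 0.02 and 1 of 31 lower in radial glia-like cells. Mki67 was at 190 and 50.1 CPM and Top2a at 388 and 124 CPM. The 2 called higher were the cycle inhibitors Cdkn1a (11.9 and 41.0 CPM) and Cdkn1c (383 and 836 CPM). Over the alternatives tried, the log2 difference of Cdkn1c ran from 0.59, less than 2-fold, to 1.55. A UMI of Top2a or Mki67 was found in 54.3% (43.6 to 64.8%) of thinned E16 and 31.0% (17.6 to 47.1%) of thinned E18 members, or 68.8% and 47.9% without thinning. In radial glia-like cells the thinned shares were 79.1% and 69.0% and in neuron-like cells 34.0% and 22.4%. The interval of the E18 member share includes the neuron-like value, and whether that value is background was not tested.

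Genes known to mark developmental time gave a mixed picture. Hmga2, a chromatin gene of early progenitors, was at 147 and 28.3 CPM in members (log2 -2.33) and at 243 and 24.3 CPM in radial glia-like cells (-3.27). It was the 1 of 7 tested genes of the heterochronic list called in members, where radial glia-like cells had 4 of 9 lower. Crabp2, a retinoic acid binding protein that was high in members (1387 and 1166 CPM), was not called between the libraries. Of late glial genes, 0 of 10 were higher and 2 lower (Fabp7 and Ptprz1) in members, and 4 of 11 were higher (Aldoc, Bcan, Hopx and Nfix) in radial glia-like cells. Among imprinted genes Igf2 (17.6 and 74.2 CPM) was higher and Mest (137 and 65.7 CPM) and Nnat (719 and 342 CPM) were lower, beside Cdkn1c.

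The lowest genes under E18 were led by Fgf17 (84.3 and 0.603 CPM), but 62% of its E16 UMIs were in 1 cell. After it came the histone gene H1f5 (174 and 20.5 CPM), with Nes, the progenitor filament nestin (77.6 and 14.5 CPM, log2 -2.35), Hmga2, Trim59, Zfp503, Pclaf and Fbxo5. Xist, which is expressed in female cells, was found in 53 of 93 E16 members and 4 of 48 E18 members, and in 64.5% and 26.5% of the other cells. Y-linked genes were found in 42 and 30 members, and both kinds in 8 and 4, so that each E18 member with a Xist UMI also held a Y-linked one. The share of cells with a Xist UMI thus differed between the libraries, and its part in the results above was not tested beyond a repeat on cells without one. Members without a Xist UMI (40 and 44) gave medians of 1.72 for ion and water transport, 1.27 for carriers, 1.35 for solute transport, -0.54 for signals and -0.80 for the cell cycle.

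**Figure D4:**
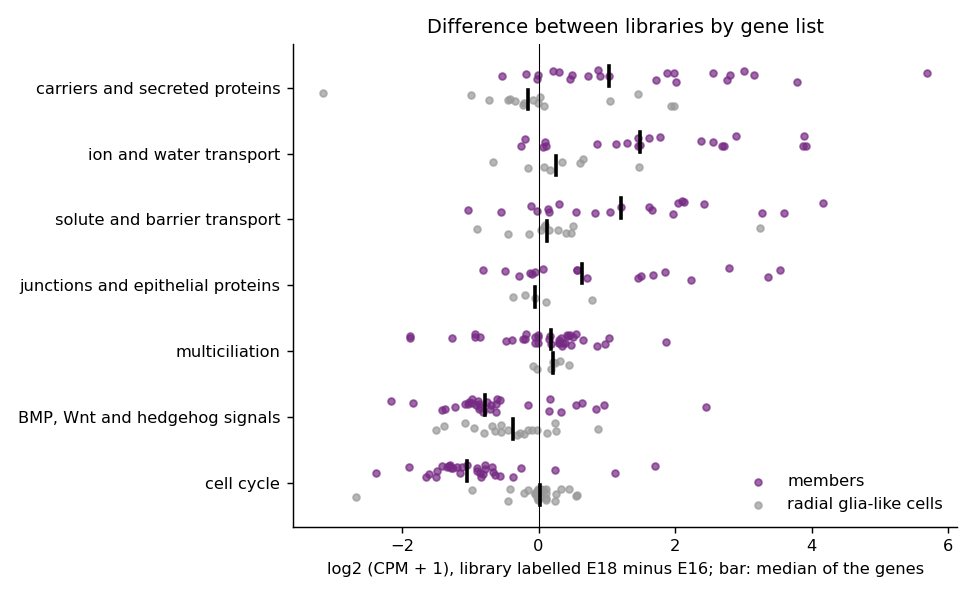
Each point is a gene of 1 of 7 lists with its log2 difference of CPM + 1, E18 minus E16, in members (purple) and in radial glia-like cells (grey), for genes with at least 5 CPM in 1 of the libraries, and black bars give the medians. Member medians run from 1.49 for ion and water transport to -1.04 for the cell cycle, where the radial glia-like medians are 0.26 and 0.02.

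Members were also compared among themselves, in low-, middle- and high-Ttr groups of equal size within a library (31 cells each under E16, 16 each under E18). The E16 groups spanned Ttr shares of 0 to 1.93%, 2.31 to 5.76% and 5.79 to 17.0%, and the E18 groups 0.0114 to 3.26%, 3.52 to 9.85% and 11.5 to 22.7%. These are ranges of a measured share and not cell types. Within 0.5 percentage points of the boundaries lay 8 and 7 of the E16 cells and 7 and 0 of the E18 cells. Median UMIs were 18038, 20445 and 15941 under E16 and 18648.5, 15602.5 and 31457 under E18, and the deepest E18 cell, with 18.8% Ttr, was in the high group. Because Ttr also entered the rule and the totals, the groups are described without a test.

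Progenitor and hem genes were highest where Ttr was lowest. Of the telencephalic and progenitor list, 11 of 12 E16 genes and 12 of 14 E18 genes had their highest level in the low-Ttr group. Over all genes at 20 CPM or more in a group, leaving out Ttr and mitochondrial genes, 42.3% (E16) and 43.2% (E18) were highest in the low group and 28.8% and 23.4% in the high group. With Ttr and mitochondrial genes also left out of the totals, these shares were 36.2% and 36.3% (low) and 35.8% and 31.3% (high), and the counts of the telencephalic list were the same. The hem signals Wnt3a and Wnt8b were lower in each step from low to high Ttr, with Wnt8b at 501, 185 and 99.8 CPM under E16 and at 265, 39.0 and 9.01 CPM under E18. Wnt3a was at 93.5, 13.5 and 6.55 CPM under E16 and at 85.6, 5.20 and 0 CPM (upper limit 4.15) under E18. Sox2, a factor of neural progenitors, was at 334, 139 and 123 CPM and at 262, 107 and 94.6 CPM. Summed over the radial glia list, the median cell had 2162, 696 and 606 CPM under E16 and 2707, 989 and 327 CPM under E18. For the excitatory neuron list the medians were 230, 68.3 and 57.5 CPM and 248, 45.4 and 15.3 CPM, so the low-Ttr cells held more of both other classes' genes. The part of mixed barcodes in this was not tested, and top doublet scores were given to 4, 0 and 1 E16 members and 1, 0 and 1 E18 members.

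Cilia genes were highest with middle or high Ttr. Under E16, 29 of 35 had their highest level in the high-Ttr group and 5 in the middle one, namely Mcidas, Gmnc, Myb, Deup1 and Rfx3. Ccno, at 73.5, 263 and 309 CPM, and Foxj1, at 74.8, 419 and 445 CPM, were highest in the high-Ttr group. For both, the intervals of the middle and high groups overlapped. Cfap126 was at 80.2, 532 and 1308 CPM, and Hydin at 9.35, 83.8 and 169 CPM. Mcidas was at 8.02, 64.9 and 50.7 CPM and Deup1 at 30.7, 159 and 129 CPM, with overlapping intervals between the middle and high groups.

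Under E18 the pattern moved toward the middle group, where 23 of 36 cilia genes were highest, or 20 of 36 without the deepest cell. With Ttr and mitochondrial genes left out of the totals, 18 were highest in the middle and 16 in the high group, so the order of those groups depended on the scaling. Ccno was at 25.9, 164 and 22.5 CPM, from 10, 63 and 20 UMIs, and since 41% of its 93 UMIs were in 1 cell, that cell was in the middle group and held most of its UMIs there. Deup1 was at 15.6, 135 and 36.0 CPM, and Foxj1 at 119, 392 and 274 CPM. Mcidas was at 0, 33.8 and 4.50 CPM. Cfap126 was at 140, 951 and 1025 CPM. Weighting cells equally, the median cell's sum over the cilia list was 719, 2950 and 4504 CPM, against 766, 2843 and 7584 CPM under E16, so by this measure the high-Ttr group was highest in both libraries.

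Transport genes had their highest level in the high-Ttr group, for 9 of 16 E16 genes and 17 of 20 E18 genes. Aqp1 was at 2.67, 28.4 and 58.9 CPM under E16 and at 20.8, 75.4 and 358 CPM under E18. Clu was at 13.4, 70.3 and 196 CPM and at 158, 637 and 1917 CPM, and its E18 high-Ttr level was 1632 CPM without the deepest cell. Slc12a2 differed from that order, at 65.5, 157 and 111 CPM and at 80.4, 200.1 and 99.1 CPM. The E18 high-Ttr cells therefore stood above the E16 high-Ttr cells in Aqp1 and Clu, but their Ttr shares were also higher. Among members with at least 2% Ttr (62 and 37 cells), the median E18 difference was 1.33 for ion and water transport, 1.35 for carriers, -0.06 for cilia genes and -0.74 for the cell cycle.

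Few cell cycle genes were highest with high Ttr. Of the list, 24, 7 and 2 of 33 E16 genes were highest in the low, middle and high groups. Under E18 these counts were 15, 13 and 3 of 31. Over all genes, 42.3% (E16) and 43.2% (E18) were highest in the low group and 28.8% and 23.4% in the high group. A UMI of Top2a or Mki67 was found in 23, 26 and 15 of 31 E16 cells and in 11, 9 and 3 of 16 E18 cells. Mki67 was at 255, 239 and 49.1 CPM and at 119, 88.4 and 3.38 CPM. Cdkn1c ran the other way, at 154, 439 and 597 CPM and at 158, 304 and 1361 CPM (1137 CPM without the deepest cell).

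**Figure D5:**
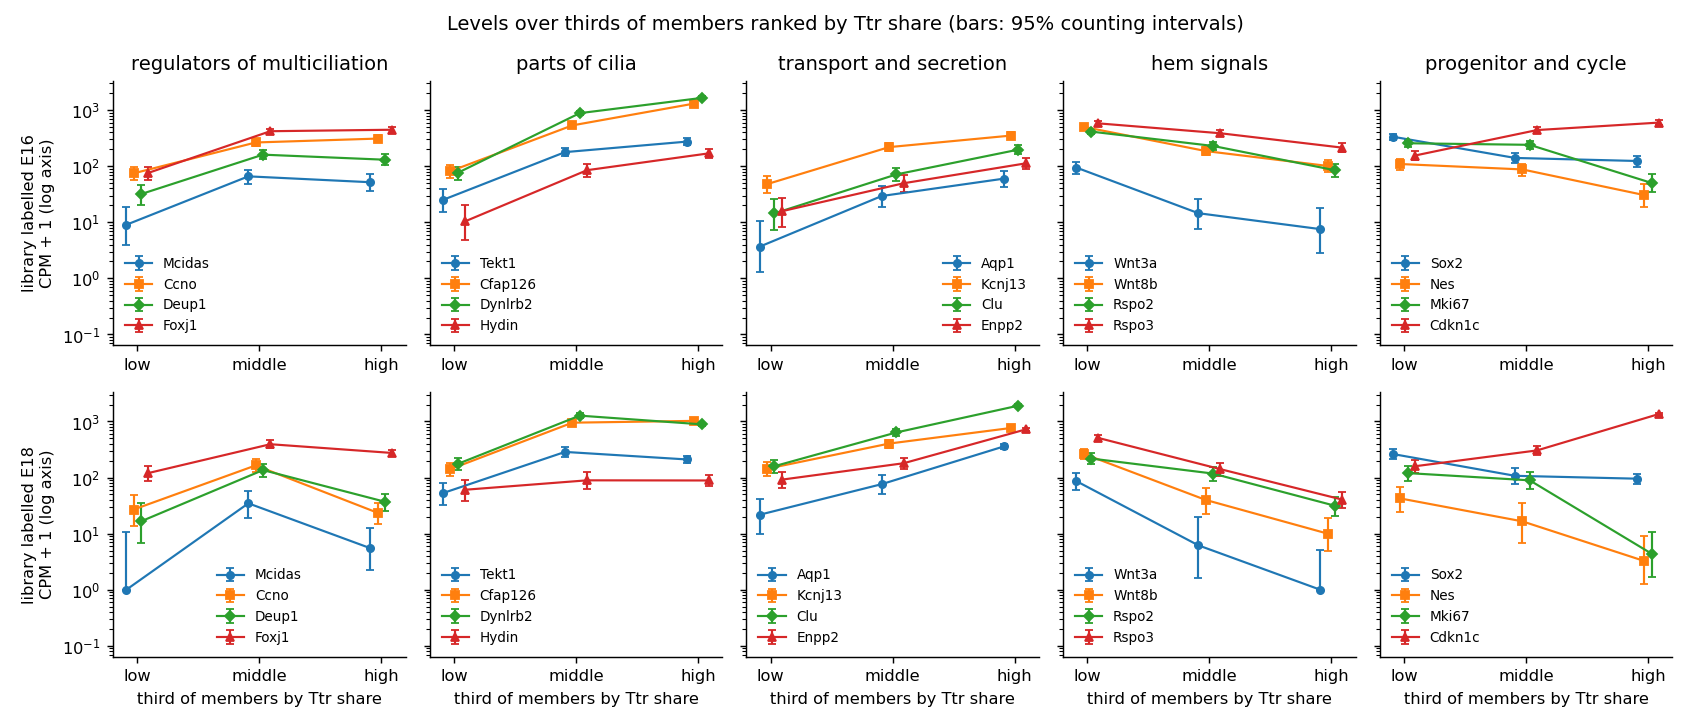
Points give CPM + 1 on a log axis for 20 genes in the low-, middle- and high-Ttr groups of members, with 95% counting intervals, for E16 (top row) and E18 (bottom row). Hem signals descend from low to high Ttr, transport genes ascend, and Deup1 under E18 is highest in the middle group (135 CPM), as is Ccno (164 CPM), most of it from 1 cell.

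Genes whose level per cell was most like Ttr were ranked by the smaller of the Spearman correlations within the 2 libraries, over 93 and 48 members and 5589 genes. They included Ndufa4 (0.77 and 0.75), Calml4 (0.77 and 0.74), Htr2c (0.74 and 0.79), Cfap126 (0.77 and 0.71), Oaz1, Car2, Smim22, Cox8a and Gde1. Ndufa4 and Cox8a encode mitochondrial respiratory chain proteins. The most opposite were Ptma (-0.75 and -0.78), Hmgb3, Vim, Tubb5, Hnrnpa1, Tmsb4x, Ppp1r14b, Marcks, Rack1 and Snrpe. The cells of a library share its preparation, and Ttr is part of each cell's total, so these values describe the members only.

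Most of these genes were rare in the library without members. Over all 4444 E14 cells Ttr had 10 UMIs in 9 cells (0.177 CPM), Otx2 was found in 4 cells, Folr1 and Sostdc1 in 2 each and Clic6 and Ccno in none. Kcne2 was the exception among the rule's genes, with 90 UMIs in 88 cells (1.98%), where it was found in 1.29% of E16 and 1.52% of E18 cells that were not members. Wnt8b was at 0.142 CPM and Foxj1 at 0.762 CPM. Rspo3, which is not limited to the hem, was found in 680 cells at 26.6 CPM. Only 1 cell of that library met the hem rule.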

How the data were processed

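Gene expression was measured by droplet single-cell sequencing (10x Single Cell 3' Kit version 3.1, NovaSeq 6000) in 3 libraries, 1 each labelled E14, E16 and E18. The authors deposited raw UMI counts per gene and barcode, made with Cell Ranger 6.0.1 on build mRatBN7.2, per the submitters' processing notes. Which barcodes had been filtered, and with which settings, is not given in the sources used here. The matrices held 29772 genes, 13 of them mitochondrial.

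UMI counts were summed over member cells and over comparison cells of a library, scaled to CPM, and compared as log2 of CPM + 1. A gene was tested at 20 CPM or more on one side and called at a 2-fold difference with exact Poisson 95% intervals apart. Shares carry exact Clopper-Pearson 95% intervals, after random thinning to 4000 UMIs. Totals of 2099548 (E16) and 1658248 (E18) member UMIs set the precision. Intervals cover counting error only, and with 1 library a label no test was run. Doublets were left in and scored with Scrublet in Scanpy 1.11.5, the highest 0.8% per 1000 cells counting as top scores. Calling was tested on simulated data. Scripts ran in Python 3.11.15 with pandas 2.3.3, matplotlib 3.10.9, scipy 1.17.1 and numpy 2.4.6.

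A minimum of 50 members a library had been planned. The E18 library held 48, so a minimum of 40 was used. The members, the 25 gene lists and the alternatives were chosen with earlier results of these data known. Named genes were list genes reaching 20 CPM in members of a library. Beyond the lists they were the 20 highest and 10 lowest by the weaker library's ratio of members to other cells, and the 12 highest and 12 lowest between libraries at 50 CPM or more. The 10 genes most like Ttr by Spearman correlation, and the 10 most opposite, were added. Rule markers and mitochondrial, ribosomal protein, haemoglobin, Xist and Y-linked genes were left out of these ranks. List genes below 20 CPM and the examples of flagged genes were picked after their values were seen. The alternatives tried varied the membership rule, cell filter, low-value minimum, fold, added CPM, scaling, weighting and thinning depth. The RefSeq promoter table is of build GRCr8, not the build of the counts, and served only for sequences and their positions. A few genes named by these rules are not reported here.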

Additional observations from a re-analysis of the deposited data

Results flagged for a closer look

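In 6 genes members stood at least 2-fold above the other cells under one label and at least 2-fold below them under the other, and the difference between the libraries was not tested. Cited2, a transcriptional coregulator, stood at 249 CPM in members against 119 CPM in other cells under E16 (log2 1.06) and at 78.4 against 202 CPM under E18 (log2 -1.36). Runx1t1, a transcriptional corepressor, had log2 differences of 1.18 and -2.40, with 84.8 against 36.8 CPM and 38.0 against 205 CPM. Draxin, a secreted axon guidance protein, had 1.03 and -2.13, with 66.2 against 31.8 CPM and 25.3 against 114 CPM. The ligand Wnt7b had 1.04 and -1.51, with 36.7 against 17.4 CPM and 18.1 against 53.4 CPM. The metallothioneins went the opposite way, Mt1 with -1.63 and 1.65 (42.9 against 134 CPM, and 110 against 34.2 CPM) and Mt3 with -1.29 and 1.21 (21.9 against 54.9 CPM, and 126 against 54.0 CPM). The other cells were 641 neuron-like of 5193 kept cells under E16 and 3136 of 5690 under E18, and the part of that makeup in these differences was not tested.

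In the E14 library, which held no member, Kcne2 was found in 88 of 4444 cells, with at most 2 UMIs in a cell, where Ttr was found in 9 cells. Among barcodes that did not pass the cell filter, 1 under E16 and 13 under E18 met 3 criteria.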

How the results depend on the processing

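Across the alternatives 178 values of the main results stayed within 1.5 times the reported count or within its interval, and 28 moved further; for single values these were 554 and 100. Among values that were not called, the sign changed with the setting for the cilia list (-0.06 to 0.66), Foxj1 (-0.58 to 0.38), Dynlrb2 (-0.37 to 0.68) and Cldn1 (-0.49 to 0.31). The share of members under E16 was 1.21% with 4 criteria required, 1.06% with the rule on thinned cells and 1.28% with at most 5% mitochondrial UMIs, and under E18 it was 0.510% with the rule on thinned cells, both thinned values counting too-shallow cells as non-members. With that rule 715 genes were lower than in other E16 cells. Between the libraries 564 genes were higher and 783 lower under E18 with at most 5% mitochondrial UMIs, 233 and 160 with 10 CPM added, and 200 lower with the mean of per-cell CPM. With a minimum of 50 CPM the counts of genes higher and lower than in other cells were 632 and 241 (E16) and 830 and 815 (E18), and between the libraries 168 and 149. With no minimum the former were 2666 and 1047 (E16) and 3305 and 2444 (E18). At 4-fold they were 511 and 146 (E16) and 824 and 507 (E18), and between the libraries 90 and 34. Fewer genes pass a stricter minimum or fold by construction, and the cause of the other shifts was not tested. Alternatives chosen after seeing the data gave 218 genes lower under E18 in members without a Xist UMI and 232 without the deepest E18 member. The scaling of the Ttr groups without Ttr and mitochondrial genes was likewise chosen after seeing the data. Over the alternatives the median E18 difference ran from 1.28 to 1.83 for ion and water transport, 0.86 to 1.59 for carriers, 0.82 to 1.85 for solute transport, 0.42 to 1.08 for junctions, -1.25 to -0.35 for signals and -1.45 to -0.61 for the cell cycle.

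No paired analysis was possible because each label had 1 library. With 93 and 48 cells of 2 libraries, intervals show counting error and not the spread between embryos, and low-level genes such as Mcidas rest on a few cells.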
